A study of Mus musculus with 2 samples.

Results

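Spp1, Clu, Apoe and Tff2 encode 4 secreted proteins, and their RNA was followed cell by cell in 2 single-cell libraries of mouse pancreas taken after pancreatitis. The 4 genes were picked by symbol out of 31053 genes of the feature table because earlier results of these libraries had shown them high in particular cells, so their levels below are a description and carry no test. The levels are also set beside those of acinar secretory RNA, since in droplet libraries free RNA, that is, RNA released by other cells, can give UMIs in any droplet.

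Both libraries came from mice of genotype R26[CA]30EYFP on a C57Bl/6J background, which carry an EYFP reporter allele with 30 CA repeat units. One library held pancreatic cells with EYFP and the other pancreatic cells without it, both labelled as post-pancreatitis, with the treatment field given as None. There was 1 library per group, so no replicate error exists, and every interval below covers counting error only. The number, age and sex of the animals, how cells come to express the reporter, and the time since pancreatitis are not stated in the labels. The EYFP state and the library cannot be told apart.

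Osteopontin, the product of Spp1, is a phosphorylated matrix and cytokine-like protein that binds integrins and CD44, and it is made by duct epithelium and by some macrophages. Clusterin, the product of Clu, is an extracellular chaperone that also restrains the terminal complement complex, and it is a known product of injured epithelium. Apolipoprotein E carries lipids out of cells and is a major secreted product of tissue macrophages, while Tff2 is a trefoil peptide, a small protease-resistant protein of mucus that is also stored in pancreatic secretory granules. In pancreatitis, acinar cells lose enzyme expression and take on duct-like features, and macrophages gather in the tissue.

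In GRCm38 (GENCODE M21), Spp1 (ENSMUSG00000029304) lies at chr5:104435118-104441050 on the plus strand and Clu (ENSMUSG00000022037) at chr14:65968483-65981547 on the plus strand. Apoe (ENSMUSG00000002985) lies at chr7:19696109-19699188 and Tff2 (ENSMUSG00000024028) at chr17:31141049-31144282, both on the minus strand. All 4 are protein-coding genes. Of them, Spp1 overlaps another annotated gene, the predicted gene Gm42793, which the feature table does not list.

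The promoters of Spp1 and Apoe are shown because, of the 4 genes, a matched promoter was available for these 2 only. Among the 4 genes, Spp1 and Apoe also have the most UMIs in duct-like cells. The windows run from 250 bases before to 50 bases after the start in RefSeq (GRCm38.p6), at chr5:104434861-104435160 on the plus strand and chr7:19699139-19699438 on the minus strand, and 2 of the 4 genes were matched in that table. Capitals mark matches, on either strand, to TATAAA or CCAAT.
Spp1 promoter: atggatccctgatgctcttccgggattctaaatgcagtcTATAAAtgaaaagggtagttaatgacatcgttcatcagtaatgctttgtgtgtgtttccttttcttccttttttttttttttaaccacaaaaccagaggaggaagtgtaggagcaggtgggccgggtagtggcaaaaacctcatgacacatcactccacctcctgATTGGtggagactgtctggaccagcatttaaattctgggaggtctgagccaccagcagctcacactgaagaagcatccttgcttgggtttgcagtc
Apoe promoter: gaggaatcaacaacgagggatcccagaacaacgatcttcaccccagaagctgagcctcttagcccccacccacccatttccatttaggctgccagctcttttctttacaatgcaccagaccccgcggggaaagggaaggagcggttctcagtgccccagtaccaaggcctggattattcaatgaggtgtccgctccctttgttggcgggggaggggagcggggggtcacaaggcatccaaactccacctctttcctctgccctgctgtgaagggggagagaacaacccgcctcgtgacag

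The Spp1 window held TATAAA 211 bases before the start and CCAAT, on the opposite strand, 46 bases before it. Neither window held TGANTCA (an AP-1 motif) or TGGGAA (an RBPJ motif), and the Apoe window held none of the 4 motifs. Of 32851 promoters of this length, 13.6% hold TATAAA, 37.4% hold CCAAT, 7.81% hold TGANTCA and 25.6% hold TGGGAA. A match describes letters only.

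The libraries differed in depth and in makeup. A barcode was kept when it had 200 or more genes and no more than 20% of its UMIs (unique molecular identifiers, 1 per captured RNA molecule) from mitochondrial genes. By this filter, 860 of 1717 EYFP positive barcodes and 553 of 745 EYFP negative barcodes were kept. Their median depth was 1007.5 and 8020 UMIs per cell, and acinar secretory RNA, the summed UMIs of 34 enzyme and Reg genes, took 4.07% and 0.0986% of all kept UMIs. Cells were clustered without the 4 genes and named from marker genes that leave them out, which gave 17 clusters, of which 1 was left unnamed and the others fell into 8 named classes. Of the kept cells, 220 EYFP positive and 2 EYFP negative cells were ductal or metaplastic epithelial-like (called ductal-like here) and 99 and 1 were acinar-like. T-like cells numbered 221 and 402, and B-like cells 110 and 106. Smaller classes, by EYFP positive and EYFP negative cells, were fibroblast-like with 64 and 6, blood endothelial-like with 58 and 11, NK or innate lymphoid-like with 35 and 14, and macrophage or monocyte-like with 27 and 11. The unnamed cluster held 26 cells, all EYFP positive. All 18 ductal markers were detected in the EYFP positive ductal-like cells, at a summed level of 8524 CPM (UMIs per 1000000 UMIs of the group) against 268 in the other cells. Different clusters held most of the T-like, B-like and NK-like cells of the 2 libraries: the EYFP positive ones lay largely in shallow clusters with medians of 691 to 786 UMIs per cell.

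In addition, 4 cell barcodes occurred in both libraries. Their EYFP positive copies held from 1.28% to 2.24% as many UMIs as the EYFP negative copies. One pair was ductal-like, with 1118 Spp1, 718 Clu and 720 Apoe UMIs of 70711 in the EYFP negative library and 15, 8 and 17 of 1058 in the EYFP positive one. That barcode held most of the EYFP negative Spp1 and Clu RNA. EYFP negative values that rest on it are given below with and without it. Where a library holds fewer cells of a type, or less RNA of a gene in each cell, the whole-library level moves alike.

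All 4 genes were higher over the whole EYFP positive library. Spp1 was 15.4-fold higher (95% interval 14.6 to 16.2; 13380 UMIs against 1539), Clu 12.2-fold (11.3 to 13.1; 5639 against 819), Apoe 9.45-fold (8.99 to 9.94; 9814 against 1837) and Tff2 51.6-fold (36.5 to 75.4; 963 against 33). Among 11040 genes with at least 30 UMIs, 21.6% were over 2-fold higher with the interval past 1 and 6.31% were lower, so a higher level in this library is common. Without the barcodes found in both libraries, the folds became 53.6 for Spp1, 94.2 for Clu, 14.8 for Apoe and 52.5 for Tff2. Without the 1 cell of each library with the most UMIs of the gene they became 51.5, 85.2, 14.4 and 359. The size of the Spp1 and Clu folds thus rests on 1 EYFP negative ductal-like barcode, and that of Tff2 on 1 EYFP negative acinar-like cell. Within ductal-like cells, 220 against 2, Spp1 stood at 15779 CPM in the EYFP positive and 18309 in the EYFP negative library (fold 0.862, 0.817 to 0.909). Clu stood at 6592 and 9743 CPM (0.677) and Apoe at 8490 and 10308 (0.824). Without the shared barcode, the 1 EYFP negative cell left stood at 32410 CPM of Spp1, 7424 of Clu and 11016 of Apoe. Tff2 in acinar-like cells, 99 against 1, stood at 2596 and 5464 CPM (0.475, 0.328 to 0.715). By rank of UMIs in the EYFP positive library Spp1 was gene 15, Apoe 25, Clu 83 and Tff2 269 of the 16417 genes with a UMI.

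**Figure D1:**
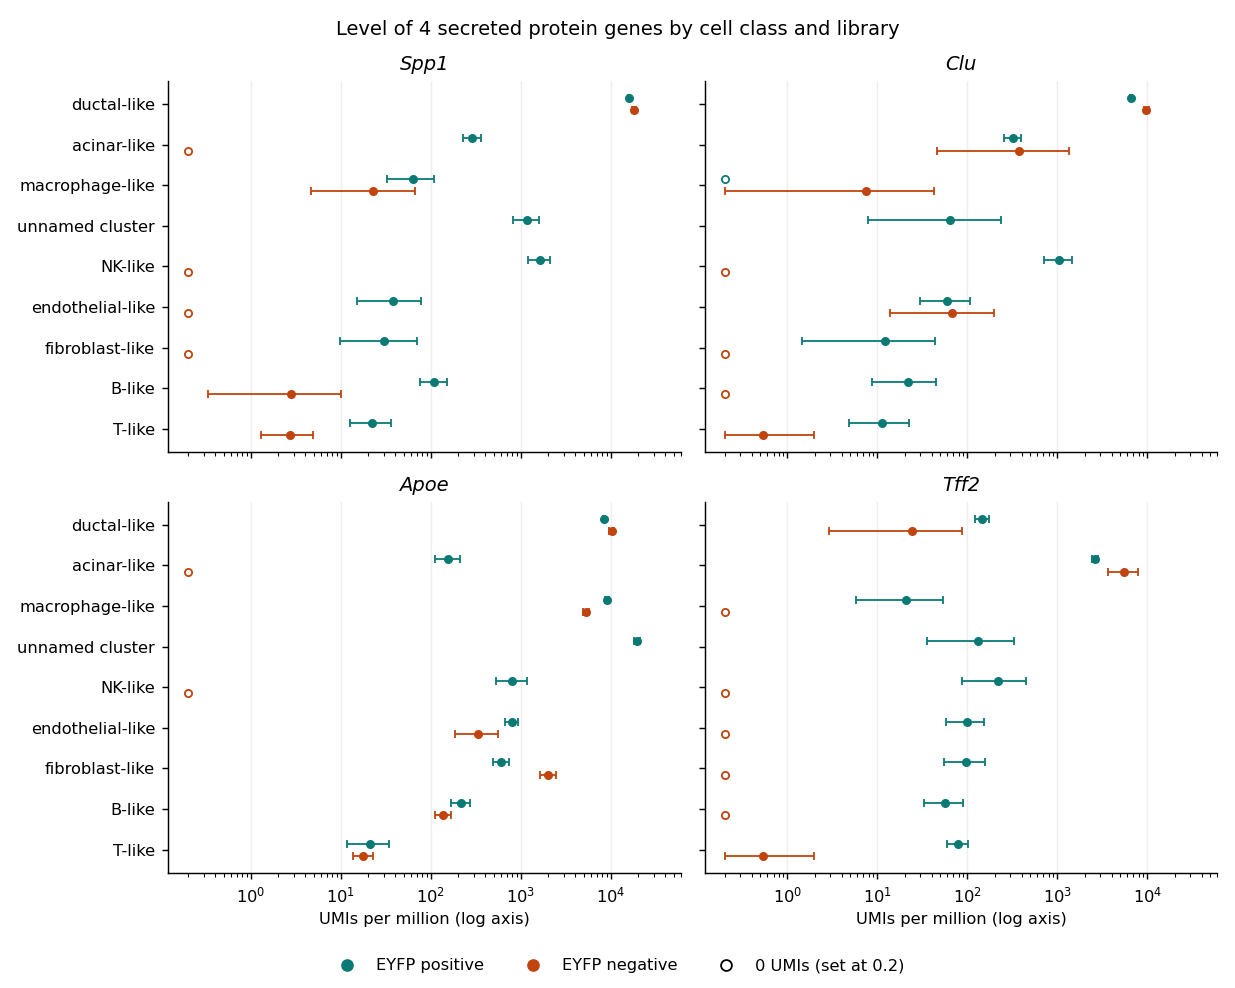
Level of each gene by cell class, in CPM on a log axis, with the exact Poisson 95% interval (counting error, 1 library per group; bars are cut at 0.2). Teal points are the EYFP positive library and orange points the EYFP negative one, and open circles mark classes with 0 UMIs. Spp1 and Clu stand highest in ductal-like cells at 15779 and 6592 CPM, Apoe in the unnamed cluster at 19806, and Tff2 in acinar-like cells at 2596 in the EYFP positive library.

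Spp1 RNA lay in ductal-like cells. In the EYFP positive library they held 98.2% of its 13380 UMIs (95% interval 97.9 to 98.4), and the same class leads for 18.9% of 8910 genes tested. A UMI of Spp1 was seen in 203 of 220 ductal-like cells, with up to 1181 in 1 cell, against 16 of 221 T-like cells, none of which held more than 1. At a matched depth of 500 UMIs, 89.1% of ductal-like and 2.26% of T-like cells held one. The class level was 15779 CPM (15511 to 16051) in ductal-like cells. Next came NK-like cells at 1621 CPM (1210 to 2125) and the unnamed cluster at 1165 (816 to 1613), whose intervals overlap, then acinar-like cells at 289 (229 to 359). B-like cells at 109 (76.1 to 152) and macrophage-like cells at 62.9 (32.5 to 110) overlapped each other. Endothelial-like cells at 38.0, fibroblast-like cells at 30.1 and T-like cells at 22.5 could not be ordered within counting error.

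Clu followed the same cells. Ductal-like cells held 97.3% (96.9 to 97.7) of its 5639 EYFP positive UMIs, at 6592 CPM (6419 to 6769), and a UMI was seen in 178 of the 220 cells. NK-like cells stood at 1028 CPM (708 to 1444) and acinar-like cells at 318 (255 to 391). The unnamed cluster at 64.7 CPM, endothelial-like cells at 59.8, B-like cells at 21.8, fibroblast-like cells at 12.1 and T-like cells at 11.2 had intervals that overlapped their neighbours in that order. Macrophage-like cells held 0 Clu UMIs in 27 cells. The floor of 3 UMIs used for a count of 0 is 15.7 CPM there, and the exact Poisson interval runs to 19.3. At this depth Clu was not detectable in the EYFP positive cells where Apoe reached 9079 CPM.

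**Figure D2:**
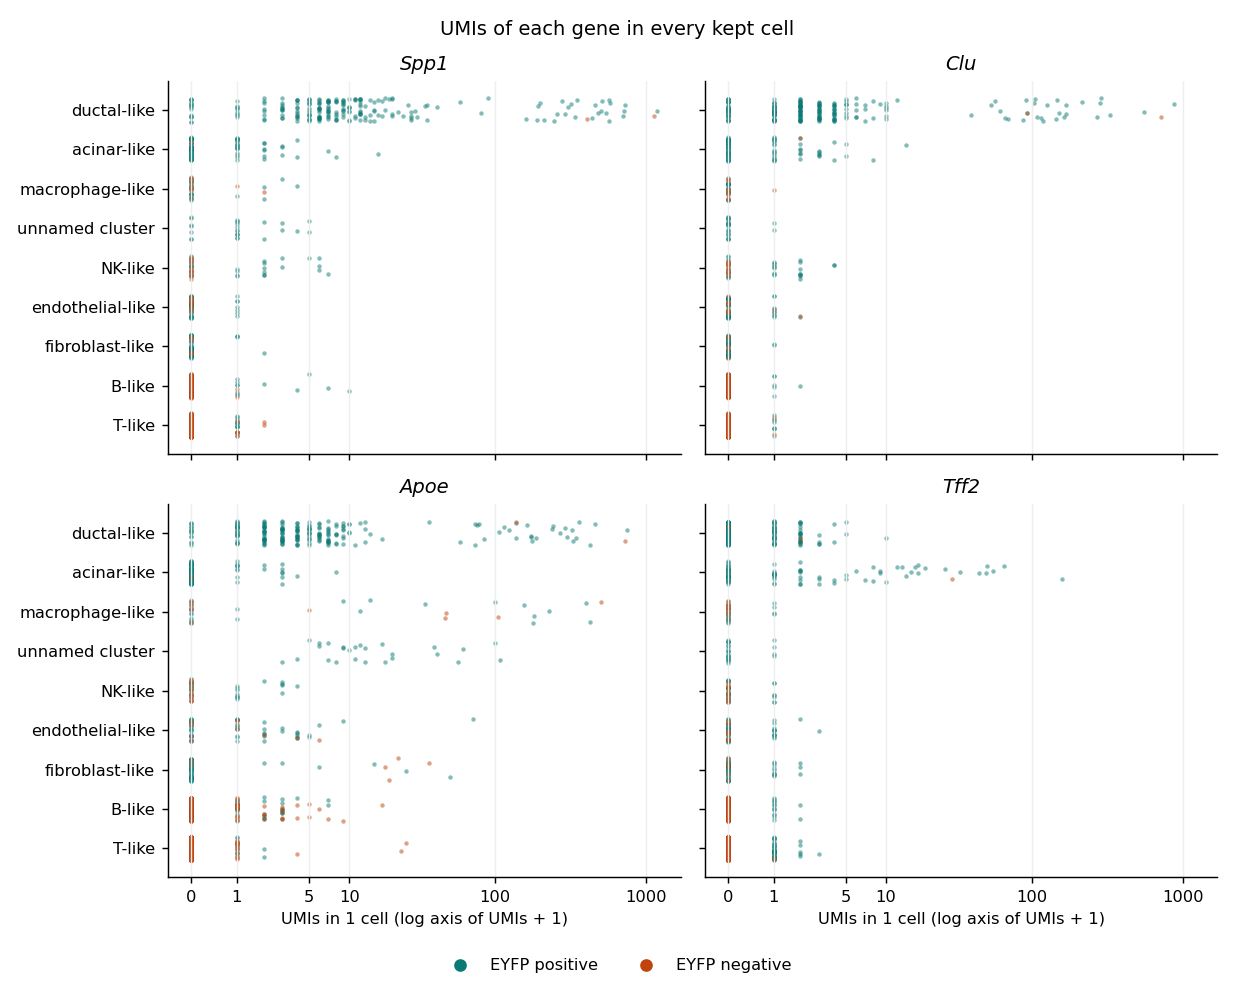
UMIs of each gene in every kept cell, on a log axis of UMIs + 1, with 1 point per cell, classes as rows and libraries as colours (points are spread vertically within a row only to be seen). Ductal-like cells reach 1181 Spp1, 866 Clu and 749 Apoe UMIs in the EYFP positive library, and 1 acinar-like cell holds 158 Tff2 UMIs, while no T-like EYFP positive cell holds more than 1 Spp1 UMI.

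The ductal-like class joins a deep and a shallow cluster. The deep cluster, with 28 EYFP positive cells at a median of 16888 UMIs, held Krt8, Krt18, Sox9, Epcam and Cldn3 UMIs in all 28 cells. Spp1, Clu and Apoe were also found in 28 of 28. Spp1 ranged from 80 to 1181 UMIs per cell with a median of 343.5, Clu from 39 to 866 with a median of 122, and Apoe from 58 to 749 with a median of 174. As CPM of the cell, the medians were 22326 for Spp1, 8378 for Clu and 10963 for Apoe. Of the 3, Spp1 had the widest range, from 4639 to 42400 CPM, and Clu the narrowest, from 4337 to 13800. In 22 of the 28 cells the order was Spp1 over Apoe over Clu. Spp1 exceeded Clu in 26 and Apoe in 27 of the 28. Across these cells the shares of Spp1 and Apoe had Pearson r = 0.55 and those of Spp1 and Clu 0.50, whereas Clu and Apoe had 0.01. These are cells of 1 library that share its total, so the values only describe it.

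**Figure D3:**
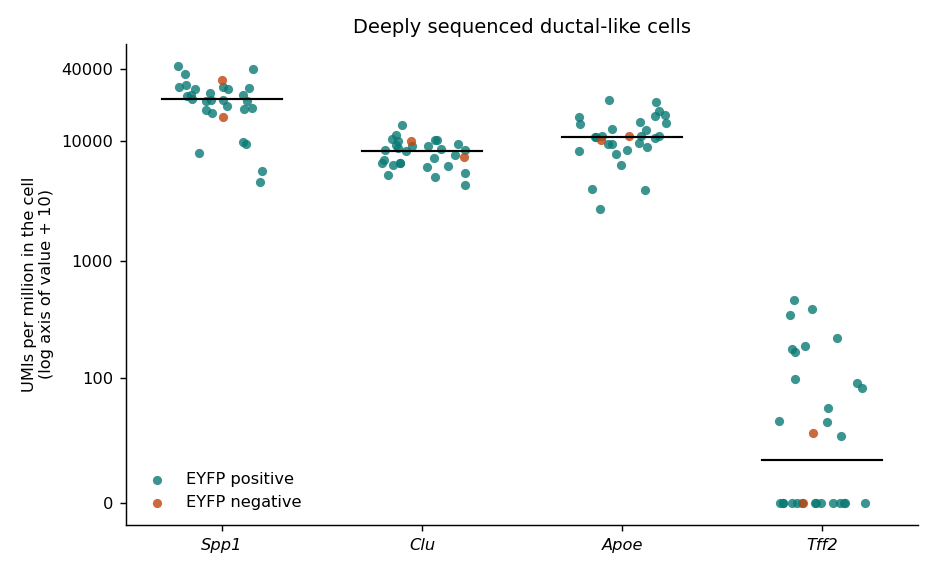
Level of the 4 genes in each cell of the deep ductal-like cluster, as CPM of the cell on a log axis of the value + 10, with 28 EYFP positive cells in teal, 2 EYFP negative cells in orange and a line at the EYFP positive median. Spp1, Clu and Apoe lie between 2766 and 42400 CPM in the teal cells, and Tff2 is 0 in 14 of the 28.

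The shallow cluster held 192 cells, all EYFP positive. Krt8 was found in 114 of the 192 cells, Krt18 in 109, Epcam in 80, Cldn3 in 72 and Sox9 in 71. One of them carried 53707 UMIs, of which 40.0% were Ppy, the pancreatic polypeptide hormone, with 30 Spp1, 1 Clu, 0 Apoe and 1 Tff2 UMIs. It is a cell whose leading RNA goes against the class name. The other 191 cells had a median of 758 UMIs. Spp1 was found in 174 of them, Apoe in 176, Clu in 149 and Tff2 in 55. Their medians were 7 Spp1, 3 Apoe, 2 Clu and 0 Tff2 UMIs per cell. Their summed level was 9415 CPM (8964 to 9882) for Spp1, 4679 (4363 to 5011) for Apoe and 2661 (2424 to 2915) for Clu. All 3 were lower than in the deep cluster, at 18961, 10340 and 8306 CPM. Tff2 differed the other way, with 471 CPM in the shallow cells and 62.8 in the deep ones. The part of depth and free RNA in these differences was not tested.

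The proportions of Spp1, Clu and Apoe in the 2 EYFP negative ductal-like cells rested on the shared barcode. Of the summed UMIs of Spp1, Clu and Apoe, Spp1 made up 51.1% (50.5 to 51.7) in the EYFP positive ductal-like cells and 47.7% (46.0 to 49.5) in the 2 EYFP negative ones. Clu made up 21.4% (20.9 to 21.9) and 25.4% (23.9 to 26.9), and Apoe 27.5% (27.0 to 28.1) and 26.9% (25.3 to 28.4). The Apoe shares overlap within counting error, and the Spp1 and Clu shares do not. The EYFP negative cell that is in 1 library only held 406 Spp1, 93 Clu and 138 Apoe UMIs of 12527. Its shares were 63.7% Spp1 (59.9 to 67.5), 14.6% Clu (11.9 to 17.6) and 21.7% Apoe (18.5 to 25.1), none of which overlaps the EYFP positive share within counting error. The Spp1 share thus lay above the EYFP positive one without the shared barcode and below it with it. The spread between cells is not in these intervals, so 1 cell cannot show a difference between libraries. Without the shared barcode the EYFP positive levels were 15781, 6591 and 8480 CPM over 219 cells.

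The name of the class depends on how names are given. At a clustering resolution of 2.0, 57 EYFP positive cells without a name held 86.0% of Spp1, 89.1% of Clu and 70.0% of Apoe UMIs, and ductal-like cells held 9.65%, 5.76% and 6.47%. With names taken from summed CPM, the shallow cluster, whose sum is led by the Ppy cell, was called endocrine, the deep one got no name and ductal-like cells held 0% of both. With clusters at resolution 0.5, or with the 4 genes allowed in the clustering, ductal-like cells held 98.2% and 98.3% of Spp1.

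NK-like cells of the EYFP positive library also held keratin RNA. Of its 35 cells, 11 carried both an NK marker and a keratin UMI, and those stood at 2593 CPM of Spp1 (1816 to 3590). The 21 cells with an NK marker and no keratin UMI stood at 771 CPM (398 to 1346). Spp1, Clu and Apoe made up 46.8%, 29.7% and 23.4% of their summed UMIs in this cluster. The 14 EYFP negative NK-like cells, a different cluster with a median of 8771.5 UMIs, held 0 UMIs of all 4 genes. The part of keratin-holding cells' RNA in these levels was not tested.

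Acinar-like and lymphoid cells held low Spp1. In acinar-like cells 3 of 99 cells, with 16, 8 and 7 UMIs, held 31 of the 80 Spp1 UMIs. Among 63 shallow B-like cells 31 Spp1 UMIs lay in few cells, the 4 highest with 10, 7, 5 and 4, for 559 CPM (380 to 793) against 15.1 CPM (4.11 to 38.6) in the 47 deep ones. T-like cells with under 2000 UMIs stood at 80.4 CPM (38.6 to 148) and deeper ones at 10.2 (3.75 to 22.2). In the EYFP negative library T-like cells stood at 2.70 CPM (1.30 to 4.97) and B-like cells at 2.79 (0.337 to 10.1). B-like cells, for which 1.97% of 3958 genes were called higher, had a Spp1 fold of 39.2 (10.1 to 336) on 35 against 2 UMIs.

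Apoe RNA had 2 main holders. Ductal-like cells held 72.0% (71.1 to 72.9) of its 9814 EYFP positive UMIs, macrophage-like cells 17.6%, and the unnamed cluster 6.24%. With names taken from summed CPM the unnamed cluster was called macrophage-like, and the macrophage-like share became 23.9%. That share was also 23.9% at resolution 0.5 and with the 4 genes allowed in the clustering. In the EYFP negative library the 2 ductal-like cells held 46.7% and the 11 macrophage-like cells 38.4%. Of the 858 ductal-like UMIs, 720 lay in the shared barcode. Without it the order turned, with 12.4% (10.5 to 14.4) in the 1 ductal-like cell left and 63.2% (60.3 to 66.0) in macrophage-like cells. By level the order was different, and the unnamed class leads for 9.78% of 8910 genes. The unnamed cluster stood at 19806 CPM (18268 to 21439), macrophage-like cells at 9079 (8657 to 9517) and ductal-like cells at 8490 (8293 to 8690). The latter 2 overlap within counting error. NK-like cells at 810 CPM, endothelial-like cells at 799 and fibroblast-like cells at 609 had overlapping intervals. B-like cells at 218 CPM (170 to 276) and acinar-like cells at 155 (112 to 209) overlapped too, and T-like cells were lowest at 21.1 (11.8 to 34.8). At a matched depth of 500 UMIs the unnamed cluster had Apoe in 100% of cells and ductal-like cells in 84.1%, against 4.52% of T-like cells.

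Among macrophage-like cells Apoe followed the C1q genes, which encode the recognition molecule of the classical complement pathway and mark resident macrophages. By marker score (mean log2 fold over a marker list) the class stood at 4.76 for macrophage or monocyte and 2.30 for dendritic cell markers. Fscn1, a dendritic cell marker, was among its top genes. Whether the cells low in C1q are dendritic cells was not tested. The cells were split at 5 UMIs of C1qa, C1qb and C1qc, a limit set after the values were seen. The 10 EYFP positive cells at or above it held 1709 of the 1732 Apoe UMIs, at 17577 CPM (16754 to 18431), with UMIs in 9 of 10 and a median of 167. The 17 cells below it stood at 246 CPM (156 to 369), with UMIs in 4 of 17. In the EYFP negative library the 4 cells at or above the limit stood at 16610 CPM (15366 to 17928) and the 7 below it at 495, where 1 cell held all 46 UMIs. The 4 cells held 502, 105, 47 and 5 Apoe UMIs, the last beside 38 C1q UMIs and a depth of 18197. Without the cell with 502 their level was 5269 CPM (4477 to 6160), and without its own highest cell the EYFP positive level was 15677 (14832 to 16557). Depth moved with the split: the median was 10017.5 and 753 UMIs in the EYFP positive cells and 9581 and 16832 in the EYFP negative ones. The cells low in Apoe were thus the deeper ones in the EYFP negative library.

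**Figure D4:**
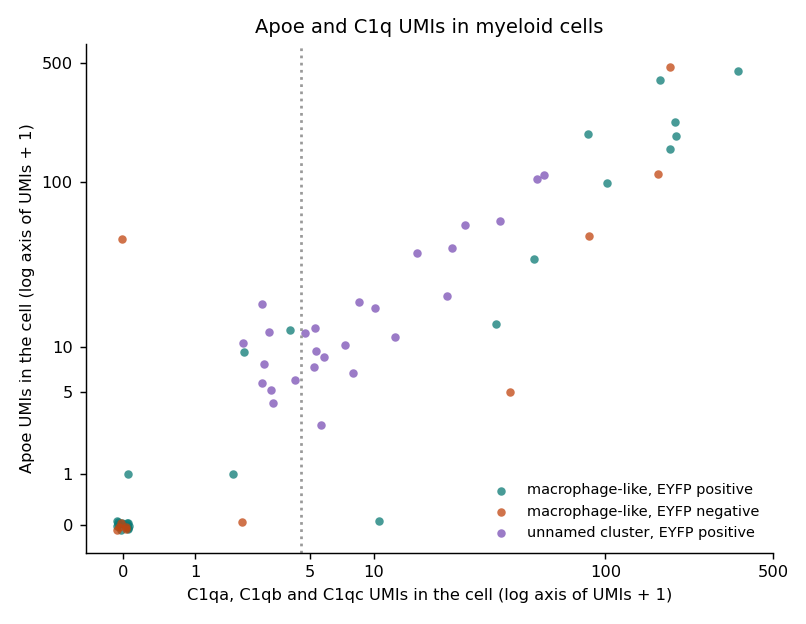
Apoe UMIs against summed C1qa, C1qb and C1qc UMIs in each macrophage-like cell of both libraries and in each cell of the unnamed cluster, both on log axes of UMIs + 1 (points are moved slightly so that they can be seen). The dotted line stands below 5 C1q UMIs. Apart from 1 EYFP negative cell with 46 Apoe UMIs, the macrophage-like cells to its left hold at most 12, and cells of the unnamed cluster hold Apoe on both sides.

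The unnamed cluster joined high Apoe to hemoglobin RNA. All 26 cells held Hbb-bs, at 38576 CPM against 47.2 in EYFP positive macrophage-like cells, and all held Lyz2 (9741 against 7879 CPM) and Ctsd (7573 against 938), a lysosomal protease. C1qb was found in 24 of 26 cells and Trem2, a lipid and apolipoprotein receptor, in 13, at 874 CPM (576 to 1271) against 142 (93.3 to 206). Mrc1 and Csf1r, 2 other macrophage genes, had lower values than in the macrophage-like cells. Mrc1, the mannose receptor, stood at 64.7 CPM (7.84 to 234) against 661 (550 to 786), and Csf1r, the receptor for colony-stimulating factor, at 162 (52.5 to 378) against 440 (351 to 545), where the Csf1r intervals overlap. Apoe was found in 26 of 26, at 21176 CPM in the 18 cells with 5 or more C1q UMIs and 13266 in the 8 with fewer. Spp1 was found in 19 of 26 cells, with at most 5 UMIs in 1. Clu was found in 2 cells. Its genes were used to form the cluster, so none of this is a test. Doublets with red cells were not tested.

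Apoe in stromal cells lay in few fibroblast-like cells and in more of the endothelial-like ones. In fibroblast-like EYFP positive cells all 101 Apoe UMIs lay in 6 of the 14 cells with at least 2000 UMIs, with 50, 25, 15, 6, 3 and 2 UMIs, and the 50 shallower cells held 0. In the EYFP negative library 95 UMIs lay in 4 of 6 cells. The level was 609 CPM (496 to 740) and 2006 (1623 to 2452), and 786 and 2043 in cells with at least 2000 UMIs. None of these deeper cells held a C1q UMI. In endothelial-like cells 71 of 147 UMIs lay in 1 cell that also held 30 C1q and 11 Mrc1 UMIs. Scrublet marked that cell as a doublet. Without it the level was 429 CPM (338 to 537), against 337 (188 to 555) in the EYFP negative library, so the libraries overlap. The 57 EYFP positive cells left held 76 UMIs in 30 cells, with at most 9 in 1. In the EYFP negative library 15 UMIs lay in 6 of 11 endothelial-like cells. Smooth muscle markers were also present in the shallow endothelial-like cluster of 35 EYFP positive cells.

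Lymphoid cells held little Apoe. B-like cells with at least 2000 UMIs stood at 158 CPM (114 to 214) in the EYFP positive and 136 (110 to 166) in the EYFP negative library, with overlapping intervals. The 63 EYFP positive B-like cells under 2000 UMIs stood at 505 CPM (335 to 729). Acinar secretory RNA stood at 5887 and 75.2 CPM in the 2 whole B-like classes. B-like cells of the whole class had a fold of 1.60 (1.16 to 2.20), while 1.97% of 3958 genes were higher in EYFP positive B-like cells and 2.55% lower. In EYFP negative T-like cells 53 of 66 UMIs lay in 5 cells that also held 5 or more Cd79a and Cd79b UMIs, which are B cell genes. T-like cells with at least 2000 UMIs and no such UMI stood at 3.47 CPM in the EYFP negative library and 1.85 in the other. The T-like fold of Apoe was 1.18 (0.627 to 2.09), while 1.22% of 8214 genes were higher in EYFP positive T-like cells and 4.03% lower.

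Tff2 RNA was highest in acinar-like cells and was found in every class of the EYFP positive library. Acinar-like cells held 74.7% (71.8 to 77.4) of its 963 EYFP positive UMIs, at 2596 CPM (2410 to 2793); this class leads for 7.69% of 8910 genes. When every cell was thinned to 500 UMIs, which gives deep cells less weight, the share was 40.7% (33.8 to 47.9). Within the class, the 43 cells of the cluster whose RNA was 59.5% acinar secretory held 690 UMIs in 34 cells, from 0 to 158 with a median of 7. The 56 cells of the other cluster, 53 of which held Rbpjl, a transcription factor of acinar cells, and whose RNA was 5.33% secretory, held 29 UMIs in 19 cells. In the first cluster 12 of the 43 cells held Rbpjl. Its median was 280 genes and 1701 UMIs per cell, against 797 genes and 2136 UMIs in the other. Whether the Tff2 RNA of the first cluster was made in those cells was not tested. One acinar-like cell held 29 of the 33 EYFP negative UMIs. By level, after acinar-like cells came NK-like cells at 218 CPM (87.7 to 449), ductal-like at 145 (121 to 174), the unnamed cluster at 129, endothelial-like at 97.8, fibroblast-like at 96.4, T-like at 78.7, B-like at 56.2 and macrophage-like at 21.0. Each overlapped the next in that order.

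The ratio of each gene to acinar secretory RNA was compared between classes. Tff2 stood at 8.15 UMIs per 1000 acinar secretory UMIs (7.56 to 8.77) in acinar-like cells and at 7.99 (7.36 to 8.66) in the 758 barcodes left out for having under 200 genes. It was 8.80 in fibroblast-like, 9.54 in B-like, 9.62 in endothelial-like, 8.24 in NK-like and 4.41 in macrophage-like cells, all with intervals that overlap that of acinar-like cells. T-like cells at 12.4 (9.36 to 16.2) and ductal-like cells at 11.0 (9.14 to 13.2) lay above it. Over the same classes Spp1 ranged from 0.906 in acinar-like to 1197 in ductal-like cells, and Apoe from 0.487 in acinar-like to 1907 in macrophage-like cells. Clu ranged from 0 in macrophage-like to 500 in ductal-like cells.

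**Figure D5:**
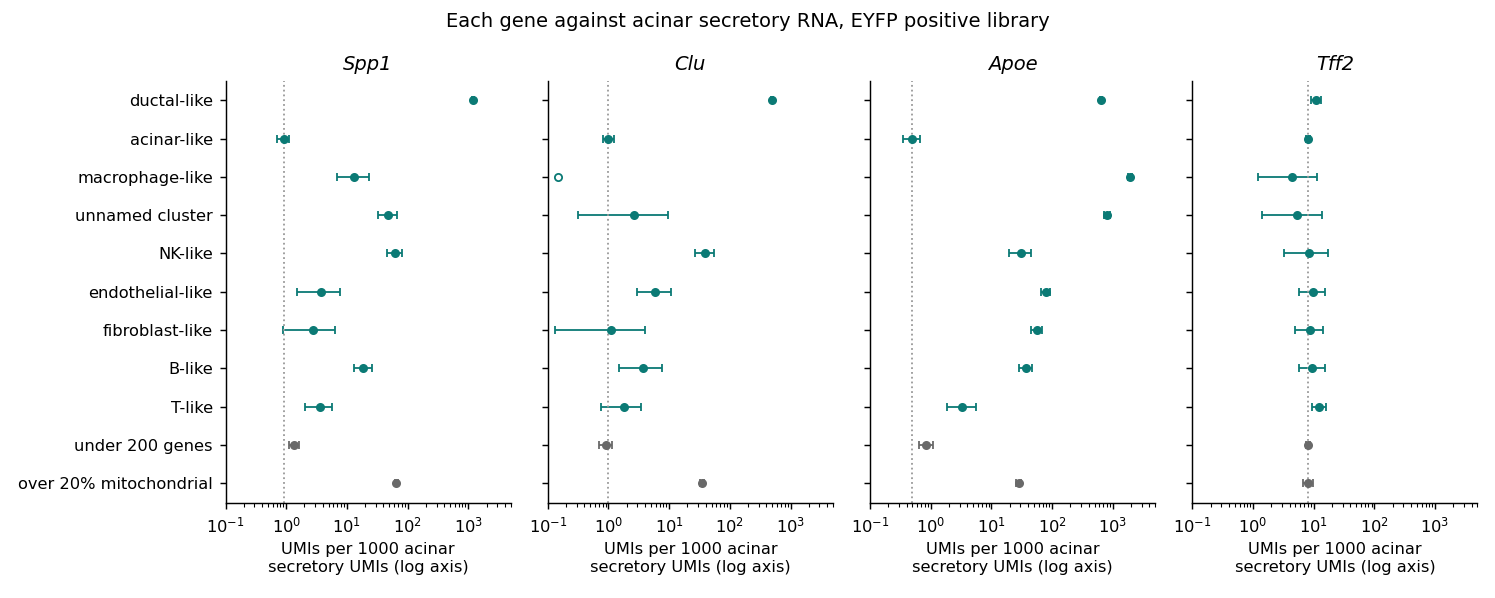
UMIs of each gene per 1000 acinar secretory UMIs in the EYFP positive library, on a log axis with exact conditional binomial 95% intervals, by cell class and in 2 sets of left-out barcodes in grey. The dotted line is the acinar-like value, and the open circle marks 0 UMIs. Tff2 stays between 4.41 and 12.4 in all rows, while Spp1, Clu and Apoe reach 1197, 500 and 1907 in their highest class.

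T-like and B-like cells, summed as cells that should not make acinar RNA, were set against acinar-like cells. Their ratio to acinar secretory RNA, divided by that of acinar-like cells, was 1.42 (1.10 to 1.81) for Tff2, 2.35 (1.26 to 4.09) for Clu, 8.79 (6.07 to 12.7) for Spp1 and 27.3 (18.7 to 40.3) for Apoe. Of 4686 genes, 1.62% came within 2-fold of the acinar-like ratio, 24 of them among the 29 acinar secretory genes with at least 30 UMIs, whose own values ran from 0.199 to 1.91. Tff2 was within 2-fold and the other 3 genes were not. Tff2 and acinar secretory RNA were both higher in T-like cells of the EYFP positive library. T-like cells held 78.7 CPM (59.4 to 102) in the EYFP positive and 0.540 (0.0655 to 1.95) in the EYFP negative library, a fold of 146 (38.5 to 1232) on 56 against 2 UMIs, beside 6340 and 83.5 CPM of acinar secretory RNA. The part of free RNA in this was not tested. Shallow cells held more of it, with 370 CPM in T-like cells under 2000 UMIs and 17.0 in deeper ones, and 401 against 7.78 in fibroblast-like cells.

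The Tff2 ratio of deep ductal-like cells lay above that of acinar-like cells, with most of the UMIs in 4 cells. The 28 deep cells stood at 16.5 per 1000 acinar secretory UMIs (11.6 to 22.7), above the acinar-like value. The Rbpjl-holding acinar-like cluster stood at 3.85 (2.58 to 5.53), below it. The deep ductal-like interval overlaps that of T-like cells given above. Of the 28 deep cells, 14 held no Tff2, 10 held 1 or 2 UMIs, and 4 held 3 to 10. Those 4 cells held 24 of the 38 UMIs, at 29.0 per 1000, and the other 24 cells stood at 9.47. The 4 cells were chosen by their Tff2, so this is a description only.

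Genes with the most similar pattern were found over 14 sums of class and library with at least 10 cells, by Pearson correlation of log2(CPM + 10) among 7150 genes. These sums share 2 libraries and their depth and free RNA. Nearest to Spp1 were Tm4sf4 (r = 0.94), Pkhd1, Ppy, Cystm1 and Rida, where the place of Ppy rests on the 1 hormone-rich cell, which held 21498 of its 21582 kept UMIs. Nearest to Clu were Cldn3 (0.94), Tm4sf4, Pcbd1, Tstd1 and Krt8, that is, claudin and keratin genes among others. Nearest to Apoe were Npc1 (0.88), Grn, Asah1, Tspan31 and Cxcl16, of which Npc1, Grn and Asah1 encode lysosomal proteins. Among the 5 genes nearest to Tff2 were Reg1 (0.97), Spink1, Cel and Zg16, which are acinar secretory genes. Between members, Spp1 and Clu had r = 0.86, and Tff2 and Apoe 0.21.

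Receptors and partners were read from fixed lists, against a median log2 fold of 0.15 over all tested genes. Of 9 tested osteopontin receptor genes, 5 were over 2-fold higher in the EYFP positive library, 1 was lower and 3 were neither, where 21.6% of all 11040 genes tested were higher and 6.31% lower. Itgb1, the common integrin beta chain, was 2.24-fold higher, while Itga4, Cd44 and Itgav had folds of 0.613, 0.611 and 1.62. Cd44, a receptor for osteopontin, was highest in macrophage-like cells at 121 CPM. The bone and tooth matrix relatives of Spp1, Ibsp, Dmp1, Mepe and Dspp, held 0 UMIs in both libraries.

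Of 7 tested receptors for clusterin and apolipoprotein E, 5 were higher, none was lower and 2 were neither; for this and the lists that follow, the share over all 11040 genes was 21.6% higher and 6.31% lower. Lrp1, an endocytic receptor, was 6.02-fold higher (4.54 to 8.06) and Scarb1 3.08-fold, and Sorl1 had a fold of 0.832. Of 7 lipid transport partners, 4 were higher and 3 were neither. Lpl, the lipoprotein lipase, was 3.72-fold higher and led in fibroblast-like cells, and Apoc1, an apolipoprotein encoded beside Apoe, was 5.87-fold higher (4.70 to 7.38) and led in ductal-like cells. Apoc1 held 0 UMIs in EYFP positive macrophage-like cells and in the unnamed cluster, where Apoe was highest. Lipa and Nr1h2 had folds of 1.63 and 0.971. Of 5 chaperone and complement inhibitor genes beside Clu, 3 were higher and 2 were neither: Cd59a, an inhibitor of complement, was 13.6-fold higher, and Hspa5 and Cd55 had folds of 1.75 and 1.19. Of the trefoil list, Tff1 and Tff3 held 0 UMIs, Muc1, an epithelial mucin, was 12.3-fold higher and Cxcr4 was lower, with a fold of 0.450. All 10 tested metaplastic ductal genes were higher, with a median log2 fold of 3.89, and all 10 led in ductal-like cells. The 29 acinar secretory genes tested were each over 2-fold higher, at a median log2 fold of 5.43, and the 6 T cell genes were lower. The lists were written with earlier results known, so their direction is no support.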

How the data were processed

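The 2 single-cell libraries (Chromium Single Cell 5′ kit, per the labels' protocols) were deposited as integer UMI counts for each gene in each barcode. Per the submitters' processing notes the tool was Cell Ranger 2.1.0 with build GRCh38, whereas the matrix header names software version 3.1.0 and gene identifiers are those of mouse, so no mapping build is assumed and positions come from GENCODE M21. The authors' deposited counts were used as they stand. Barcodes needed 200 genes and at most 20% mitochondrial UMIs. Clustering used scanpy 1.11.5 (2000 variable genes, 30 components, 15 neighbours, Leiden resolution 1.0) without the 4 genes, and a name needed 3 markers. Levels are UMIs per 1000000 (CPM) with exact Poisson intervals, and shares have Clopper-Pearson intervals. Folds and ratios to acinar secretory RNA have exact conditional binomial intervals. All are at 95%, with a floor of 3 UMIs. No test across libraries was possible with 1 library per group. The 4 genes, markers and lists were chosen with earlier results of these data known. Named genes are the 4, the 5 most like each, and up to 4 of each list by UMIs. Some genes that this rule names are not reported here. Others, such as the genes of the unnamed cluster and the limits of 2000 UMIs and 5 C1q UMIs, were chosen after their values were seen. Doublets were marked with Scrublet as an alternative only (2 of 860 and 5 of 553 cells).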

Additional observations from a re-analysis of the deposited data

Results flagged for a closer look

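Apoe differed in direction between cell classes when the libraries were compared. It was 1.60-fold higher in EYFP positive B-like cells, 2.37-fold in endothelial-like cells and 1.71-fold in macrophage-like cells, each with an interval above 1, but stood at 0.303 in fibroblast-like cells, with an interval below 1. The difference between classes was not tested, since there was 1 library per group. In B-like cells with at least 2000 UMIs the levels were 158 CPM (114 to 214) and 136 (110 to 166), with overlapping intervals. The 63 EYFP positive B-like cells under 2000 UMIs stood at 505 CPM (335 to 729). In endothelial-like cells 1 cell, which Scrublet marked as a doublet, held 71 of 147 UMIs. Without it, the 1 cell with C1q UMIs, the levels were 429 and 337 CPM with overlapping intervals. In EYFP positive fibroblast-like cells 1 cell held 50 of 101 UMIs, and without it the value was 0.163. In EYFP negative macrophage-like cells 1 cell held 502 of 705 UMIs, and without it the fold was 5.49 (4.74 to 6.38). Among macrophage-like cells with at least 5 C1q UMIs the levels were 17577 CPM in the EYFP positive and 16610 in the EYFP negative library, and 15677 and 5269 without the highest cell of each. Barcodes left out for over 20% mitochondrial UMIs also held the genes. The 99 EYFP positive ones stood at 4041 CPM of Spp1, 2140 of Clu, 1746 of Apoe and 495 of Tff2, and the 42 EYFP negative ones at 102 CPM of Apoe on 5 UMIs. Per 1000 acinar secretory UMIs, Tff2 stood at 8.04 in the 99 barcodes, near the 8.15 of acinar-like cells, and Spp1 at 65.6, against 0.906.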

How the results depend on the processing

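No paired analysis was possible because each group has 1 library. Of 84 alternative values of the 4 folds and 4 shares of the reported leading class (ductal-like for Spp1, Clu and Apoe, acinar-like for Tff2), 33 stayed within the 95% interval of the value reported and 51 left it; every fold kept its direction. With 500 or more genes and no more than 10% mitochondrial UMIs, the fold was 16.5 for Spp1, 13.5 for Clu, 10.3 for Apoe. Over every deposited barcode, the fold was 12.4 for Spp1, 9.96 for Clu, 7.37 for Apoe. Against a total without acinar, mitochondrial and ribosomal genes, the fold was 13.2 for Spp1, 10.5 for Clu, 8.12 for Apoe. As the mean over cells of CPM, the fold was 35.7 for Spp1, 27.7 for Clu. At 500 UMIs per cell, the fold was 49.6 for Spp1, 20.9 for Clu, 10.7 for Apoe, 32.0 for Tff2. Without the cell of each library with the most UMIs of the gene, the fold was 51.5 for Spp1, 85.2 for Clu, 14.4 for Apoe, 359 for Tff2. Without barcodes found in both libraries (chosen after seeing the data), the fold was 53.6 for Spp1, 94.2 for Clu, 14.8 for Apoe. In cells with at least 2000 UMIs (chosen after seeing the data), the fold was 16.4 for Spp1, 13.7 for Clu, 10.3 for Apoe. With 500 or more genes and no more than 10% mitochondrial UMIs, the share of that class was 94.5% for Spp1, 95.005% for Clu, 70.1% for Apoe, 84.8% for Tff2. At 500 UMIs per cell, the share of that class was 93.3% for Spp1, 90.3% for Clu, 60.6% for Apoe, 40.7% for Tff2. Without the cell of each library with the most UMIs of the gene, the share of that class was 96.8% for Clu, 69.7% for Apoe, 69.7% for Tff2. At resolution 2.0, the share of that class was 9.65% for Spp1, 5.76% for Clu, 6.47% for Apoe, 84.1% for Tff2. There cells without a name held more, with 86.0% of Spp1, 89.1% of Clu and 70.0% of Apoe. With names from summed CPM, the share of that class was 0% for Spp1, 0% for Clu, 0% for Apoe. There cells without a name held 85.7% of Spp1, 89.1% of Clu and 64.2% of Apoe. With each cell classed by its own markers, the share of that class was 81.5% for Spp1, 87.0% for Clu, 61.4% for Apoe, 90.3% for Tff2. There only 43 EYFP positive cells were ductal-like, against 220 in the main naming. Acinar-like cells numbered 479 and held 17.1% of Spp1, 12.2% of Clu and 11.8% of Apoe. In cells with at least 2000 UMIs (chosen after seeing the data), the share of that class was 99.3% for Spp1, 98.3% for Clu, 73.1% for Apoe, 90.2% for Tff2. Without 1 cell of a library, or 1 in each (chosen after seeing the data), the Apoe fold ranged from 1.40 to 5.49 in macrophage-like, 1.27 to 3.71 in endothelial-like, 0.163 to 0.375 in fibroblast-like and 1.46 to 1.91 in B-like cells; in endothelial-like cells the interval reached 1 without the highest EYFP positive cell. Of 304 class levels under the alternatives, 202 stayed within their interval. The cause of these moves was not tested, except that thinned values rest on fewer UMIs. Depth limits every level in cells under 2000 UMIs, where 1 UMI is a large share.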
